A study of Rattus norvegicus with 17 samples.

Results

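The expression of 27 genes of adhesion, axon guidance and extracellular matrix families was compared in rat hippocampus between 3 laboratories. The genes were chosen by name, with earlier results of these data known. They carry a symbol in the supplementary tables in which the study lists genes differentially methylated between Site #1 and each other site. Of these tables, 1 was available only in part. The symbol begins with 1 of 18 family prefixes: Col, Lam, Itg, Cdh, Pcdh, Cntn, Sema, Plxn, Adam, Eph, Efn, Robo, Slit, Unc5, Ntn, Nrxn, Nlgn or Tenm. Of 32 genes with such a prefix, Col1a1, Col6a3 and Adamts2 were left out by name and serve here as connective tissue markers, and Efnb2 and Tenm4 were left out because the study lists them as markers of hippocampal regions. The remaining 27 genes, from 14 of the 18 families, are a sample of these families rather than whole families. They stand among 1418 tested genes with a symbol in those tables and 22664 tested genes in all, which are the genes not at exactly 0 in all 17 libraries.

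RNA-Seq libraries were made from whole hippocampi of male SAS-Sprague Dawley rats killed by rapid decapitation without anesthesia, with 1 library per rat. Site #1 (5 rats) and Site #2 (6 rats) received rats from Charles River at 8.3 weeks of age, housed them singly on a LabDiet chow, killed them 18 to 19 days after arrival and dissected in saline. Site #3 (6 rats) received rats from Harlan (Envigo) at 8 weeks of age, housed them in pairs on an NIH open formula diet, killed them 27 days after arrival and dissected in bubbled artificial cerebrospinal fluid. Daily handling and the light cycle were the same at all sites. Vendor, diet, housing, time in the laboratory and buffer all differ between Site #3 and the other sites, so their parts cannot be told apart, and each site is also its own batch of rats and dissections.

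These families act where cells meet their surroundings. Collagens form the fibres and sheets of the matrix, integrins are the paired receptors that anchor cells to it, and ADAM proteins are membrane proteins of which many cut other surface proteins. In the developing brain, Slit, netrin, semaphorin and ephrin ligands steer axons through Robo, Unc5, plexin and Eph receptors, and neurexins and teneurins help to build synapses. In the adult hippocampus many of the guidance genes remain expressed in neurons, whereas most collagens come from vessels, meninges and choroid plexus.

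Expression is given throughout on the deposited log2 scale. Normalization between libraries had been done before deposition, and the transform is not given in the sources used here. The median within-site SD was 0.009 for the 6934 tested genes with a mean below 3 and 0.086 for the 10694 with a mean of at least 8, so differences between low values are small on this scale. If the transform drew values toward a gene's mean, as a regularized log does, a difference understates the change in expression, most of all for low genes, and differences are therefore not given as folds. Read counts were not part of these values, so the depth of each library is unknown from them, and levels are not compared between genes. Differences are the second site minus the first. They were tested with limma over all 22664 genes with Benjamini-Hochberg adjustment, and the p values measure the spread between rats of a site. Values turned back to a linear scale and set to 1 common library sum served as approximate CPM, which carries the same limit. Of the 27 members, 20 had a mean of at least 1 approximate CPM.

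Several libraries stood apart and bear on the members. Col1a1, the main chain of fibrous collagen, lay between 10.07 and 10.95 in 4 libraries (Site #1 replicate 5, Site #2 replicate 3 and Site #3 replicates 1 and 2) and between 8.53 and 8.95 in the other 13. In Site #3 replicate 1, the choroid plexus genes F5 and Aqp1 stood at 12.04 and 7.74, against at most 5.76 for F5 and 6.18 for Aqp1 elsewhere. Car12, the third choroid plexus marker used here, did not set this library apart, at 12.17 against 12.21 in Site #3 replicate 6. Neuronal (Rbfox3, 12.08 to 12.33), astrocytic (Gfap, 15.02 to 15.43) and microglial (Csf1r, 11.73 to 12.18) markers were present in all libraries, as the tissue label requires. In bulk tissue, fewer cells of a type and less RNA per cell cannot be told apart.

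A single member differed between sites past the adjusted threshold. Between Site #2 and Site #3, 1 of 27 members, the integrin gene Itgad, passed an adjusted p of 0.05 with limma and Benjamini-Hochberg adjustment, and it was higher at Site #3. Of all tested genes, 1.05% passed in that comparison, and 0.529% of all tested genes passed and were higher at Site #3. No member passed between Site #1 and Site #2 (0 of 27, with 0.0% of all genes), between Site #1 and Site #3 (0 of 27, with 0.101%) or when Site #3 was set against the average of the other sites (0 of 27, with 0.768%). At an unadjusted limma p under 0.05 there were 4, 0, 5 and 2 members for Site #1 vs Site #2, Site #1 vs Site #3, Site #2 vs Site #3 and the Site #3 contrast. The corresponding shares of all genes were 6.74%, 8.17%, 14.8% and 12.0%, and those of the members 14.8%, 0.0%, 18.5% and 7.41%. In none of these comparisons were the libraries of a member fully separated, which was the case for 0.878%, 1.38%, 1.95% and 0.344% of all genes.

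The 95% intervals of most members were narrow, and they describe the deposited scale, not fold changes in RNA. For the 20 members with at least 1 CPM, the 95% interval of the difference between Site #2 and Site #3 reached a median of 0.13 to either side of the estimate, from 0.08 to 0.40. In that comparison, 18 of the 20 intervals lay within 0.5 log2 units of 0 on both sides, and the bound farthest from 0 was 0.59, for Itgb6. Between Site #1 and Site #3 the intervals were wider, with a median of 0.16 and up to 0.45 to either side, 18 of the 20 lay within 0.5 and the farthest bound was 0.63, again for Itgb6. All 20 lay within 0.5 between Site #1 and Site #2, where the largest bound was 0.40 for Col4a1. The median absolute difference of these members was 0.10 between Site #2 and Site #3, and that of all genes with at least 1 CPM was 0.06. Their spread between rats of a site was also somewhat larger than usual, with a median within-site SD of 0.12 against 0.09.

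**Figure D1:**
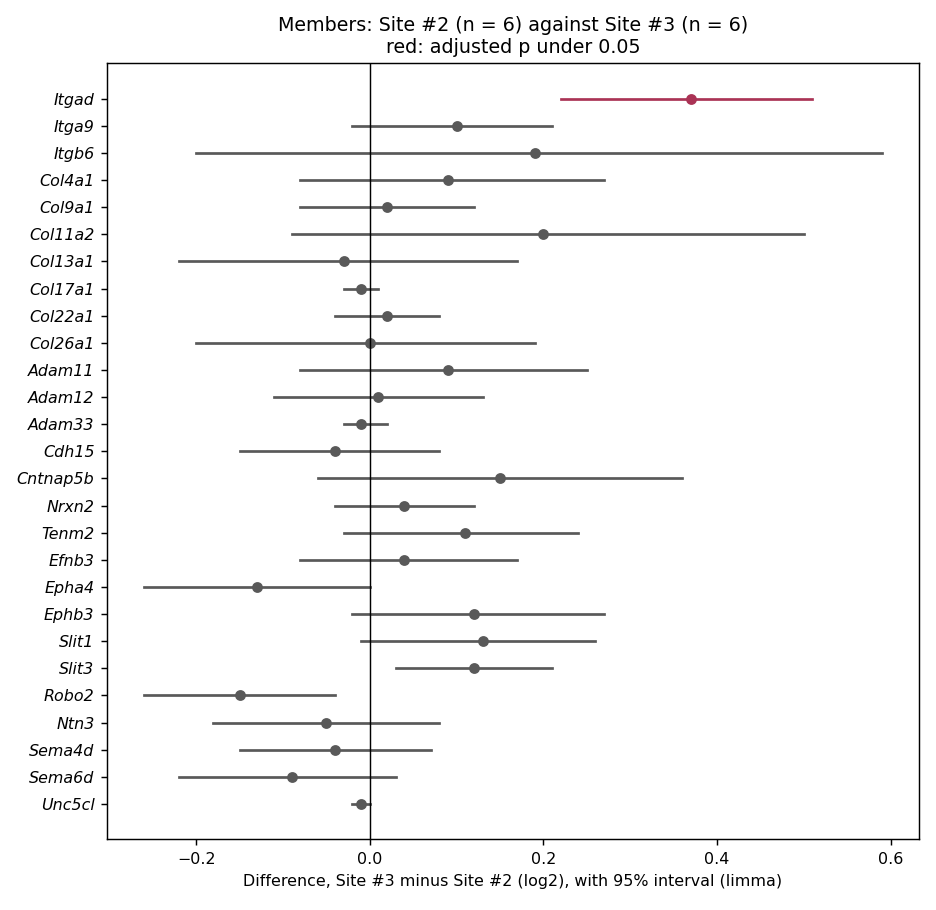
Difference of each of the 27 members between Site #2 (n = 6) and Site #3 (n = 6), as Site #3 minus Site #2 in log2 units on the horizontal axis, with 95% intervals from limma; red marks an adjusted p under 0.05. Itgad, at 0.37, is the single red point, and most other intervals cross 0.

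The signs of the differences were mixed. Between Site #2 and Site #3, 16 members were higher and 11 lower, with a median difference of 0.02 against 0.00 over all genes. Median centring of the libraries turned this to 13 higher and 14 lower, and quantile normalization to 15 and 12. Of all 22664 tested genes, 11447 were higher in the reported fit and 6405 after median centring. Without Site #3 replicate 1, 14 members were higher and 13 lower. Median centring moved the calls of all genes as well, from 120 higher and 119 lower to 73 higher and 160 lower, while Itgad stayed a call in the same direction (0.34, adjusted p = 0.0203 with limma). Between Site #1 and Site #2, 7 members were higher and 20 lower, with a median of -0.02. Median centring made these counts 13 and 14, and quantile normalization 5 and 22. Of all tested genes, 11187 were higher in the reported fit of these sites and 15964 after median centring. The comparisons share the libraries of a site, so these counts are not independent of each other.

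The integrins held the single call and the widest outlier. Itgad encodes the alpha D chain of a leukocyte integrin, which pairs with the beta 2 chain. Its values at Site #1 were 9.12, 9.34, 9.23, 8.85 and 9.04. They ran from 8.85 to 9.09 at Site #2 with a median of 8.91, and from 9.03 to 9.46 at Site #3 with a median of 9.34. Site #2 was low and narrow, 5 of the 6 Site #3 libraries lay above every Site #2 library, and Site #1 spanned most of both. The means were 9.12 ± 0.19 (SD, n = 5), 8.93 ± 0.08 (n = 6) and 9.30 ± 0.15 (n = 6). Site #3 exceeded Site #2 by 0.37 (SE 0.07, 95% interval 0.22 to 0.51, adjusted p = 0.0271 by limma with Benjamini-Hochberg adjustment).

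The call for Itgad was near the threshold. It was lost when any 1 of 8 of the 12 libraries was left out (adjusted p from 0.0525 to 0.0636 in limma), namely Site #2 replicates 2, 3, 4 and 6 and Site #3 replicates 2, 4, 5 and 6, and the difference stayed between 0.33 and 0.42. Without the 4 libraries high in Col1a1 it was 0.36 with an adjusted limma p of 0.181. Against Site #1, Itgad was at a mean 0.19 lower at Site #2 and 0.18 higher at Site #3, and neither difference passed (adjusted p = 0.705 and 0.688, limma). For Itgad, Site #3 minus the average of the other sites was 0.27 ± 0.07 (SE), with an adjusted limma p of 0.0759. In the current rat assembly Itgad lies beside Itgam and Itgax, which encode related alpha chains, and reads shared with such near copies cannot be traced in these values.

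Of the 5 microglial markers of the list, 4 had a higher mean at Site #3 than at Site #2, as Itgad had, and 0 passed the adjusted threshold in limma. At an unadjusted p under 0.05 there were 2 of the 5, against 14.8% of all tested genes. C1qa, a complement component made by microglia, was 0.27 higher (adjusted p = 0.0618) and Csf1r, the receptor for the microglial growth factor, 0.20 higher (adjusted p = 0.055, limma with Benjamini-Hochberg adjustment). C1qa and Csf1r each passed under some other settings, such as a filter at 1 CPM (adjusted p = 0.0337 and 0.0321, limma). P2ry13, a purinergic receptor, was at 7.50 at both sites. The summed level of the list ran from 161 to 203 approximate CPM at Site #2, from 175 to 213 at Site #1 and from 203 to 216 at Site #3, and no marker was at 0. With the mean of the 5 markers as a covariate, the Itgad difference was 0.38 with an adjusted limma p of 0.146. The same covariate lowered the calls among all tested genes in this comparison from 239 to 33.

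**Figure D2:**
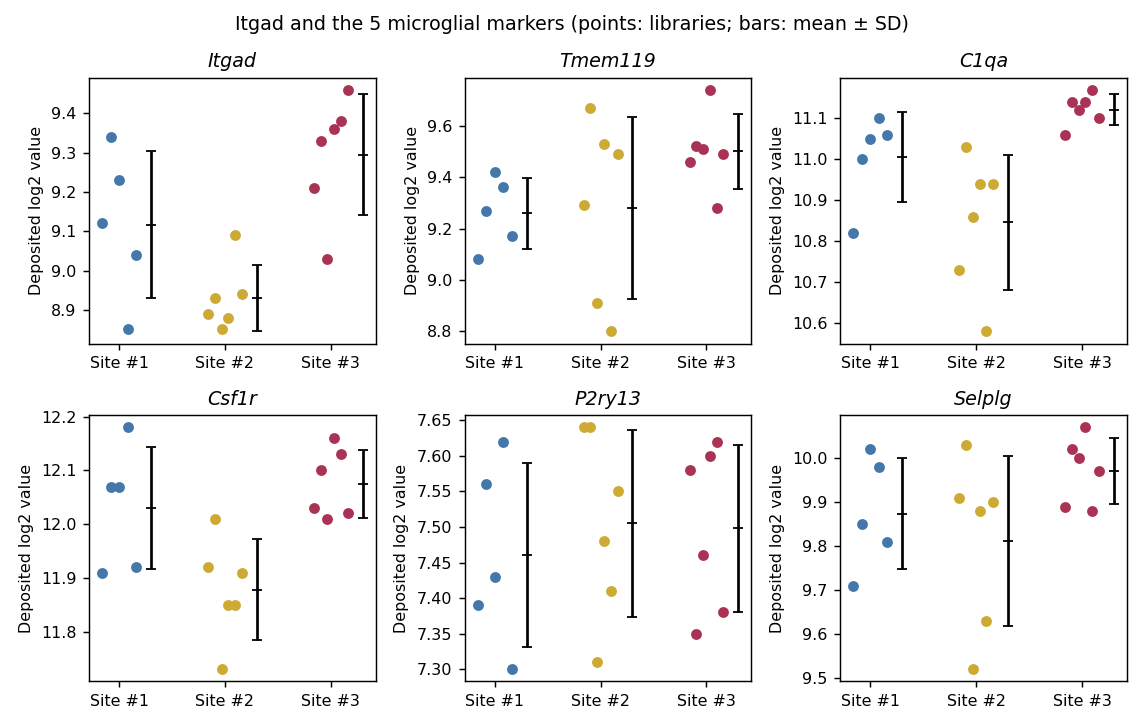
Deposited log2 values of Itgad and the 5 microglial markers by site, 1 point per library (5, 6 and 6 rats), with the mean ± SD as black bars; each panel has its own vertical scale. Itgad runs from 8.85 to 9.09 at Site #2 and from 9.03 to 9.46 at Site #3, and C1qa and Csf1r are also lower at Site #2.

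Itga9 encodes an alpha chain that pairs with beta 1 and binds tenascin-C. It stood at 6.88, 7.03, 6.99, 6.98 and 7.08 at Site #1, at 6.72 to 7.06 (median 6.76) at Site #2 and at 6.83 to 6.95 (median 6.90) at Site #3. Its means were 6.99 ± 0.07, 6.81 ± 0.13 and 6.90 ± 0.05, and the 0.18 by which Site #2 was below Site #1 did not pass (adjusted p = 0.66, limma). Replicate 1 of Site #2, at 7.06, stood apart from the other Site #2 libraries, which reached 6.80.

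Itgb6 encodes the beta 6 chain, which pairs with alpha V on epithelia and activates latent TGF-beta. Its values were 6.00, 5.67, 5.77, 5.74 and 5.75 at Site #1, and 5.69 to 5.85 (median 5.77) at Site #2. At Site #3 it ran from 5.68 to 6.98 with a median of 5.78. The high value belongs to Site #3 replicate 1 alone, and the other 16 libraries did not exceed 6.00. F5 and Aqp1 were high in this library, whereas Car12 did not set it apart. The part of choroid plexus in the Itgb6 value was not tested. The within-site SD of 0.31 was the largest of all members, and the means were 5.79, 5.77 and 5.97.

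Of the 7 collagens, Col13a1 and Col26a1 were highest in the same 4 libraries. Col13a1 encodes a collagen that spans the cell membrane and Col26a1 a secreted protein with collagen stretches. Both were low, with means of 0.914 and 0.723 approximate CPM. For each, the 4 highest of the 17 values were in the 4 libraries with high Col1a1, which is true of 2 of the 27 members and of 0.993% of all tested genes. These libraries come from all 3 sites.

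Col13a1 stood at 5.12, 5.11, 5.26, 5.30 and 5.54 at Site #1, at 5.09 to 5.56 (median 5.14) at Site #2 and at 5.03 to 5.42 (median 5.11) at Site #3. The 4 libraries high in Col1a1 held 5.31 to 5.56 and the other 13 held 5.03 to 5.30, so the ranges nearly touched. Col26a1 stood at 4.77, 4.74, 4.86, 4.94 and 5.16 at Site #1, at 4.75 to 5.18 (median 4.79) at Site #2 and at 4.73 to 5.14 (median 4.76) at Site #3. Its ranges were clearly apart, 5.04 to 5.18 against 4.73 to 4.94. The site means hardly differed, at 5.27, 5.20 and 5.17 for Col13a1 and at 4.89, 4.87 and 4.87 for Col26a1. The fibroblast marker genes Col6a3 (7.83 to 8.33 against 6.59 to 7.40) and Fmod (9.42 to 10.31 against 7.97 to 8.65) had their highest values in the same 4 libraries, and Adamts2 had 2 of its 4 highest there. The part of connective tissue in these values was not tested.

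**Figure D3:**
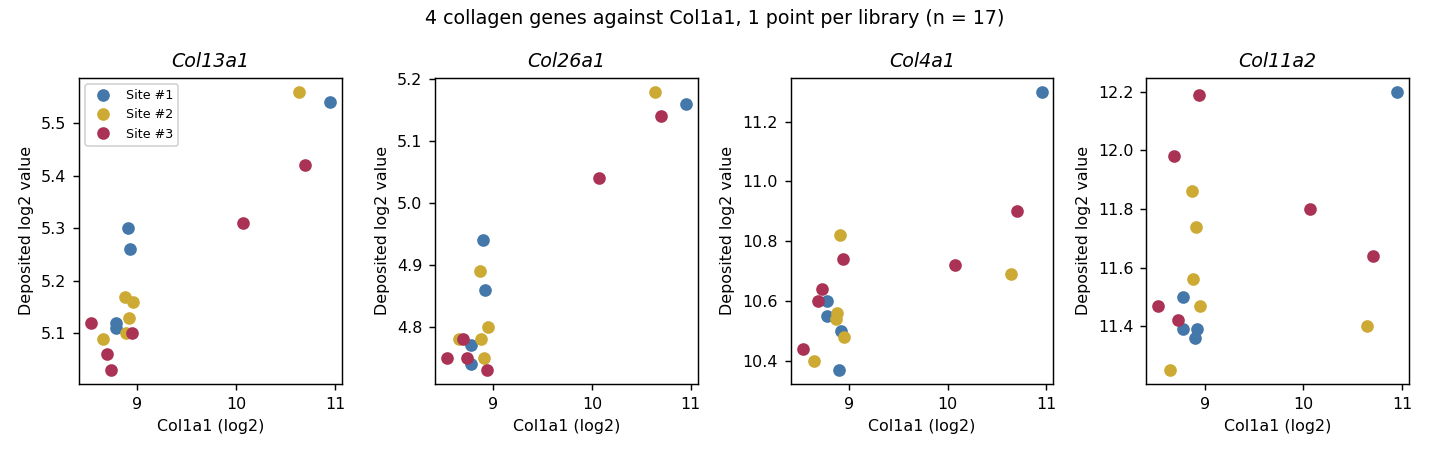
Deposited log2 values of Col13a1, Col26a1, Col4a1 and Col11a2 (vertical axes, own scales) against Col1a1 (horizontal axis, log2), 1 point per library and coloured by site, n = 17. In the panels of Col13a1 and Col26a1 the 4 libraries with Col1a1 above 10 are also the 4 highest, and in that of Col11a2 they are not.

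Because Col13a1 and Col26a1 were highest in the same libraries, the sequence before their starts is shown, with each CG dinucleotide, the place where most DNA methylation occurs, in capitals. The sequences are the 250 bases before the start of a RefSeq transcript in assembly GRCr8, read 5′ to 3′ on the strand of the gene, at chr20:30466801-30467050 (minus strand) for Col13a1 and chr12:25429146-25429395 (plus strand) for Col26a1.
Col13a1: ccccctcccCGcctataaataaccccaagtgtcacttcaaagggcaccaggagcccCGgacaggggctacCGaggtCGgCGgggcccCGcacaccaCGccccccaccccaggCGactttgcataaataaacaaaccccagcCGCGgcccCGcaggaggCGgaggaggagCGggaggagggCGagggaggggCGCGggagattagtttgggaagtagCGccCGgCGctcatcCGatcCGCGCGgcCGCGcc
Col26a1: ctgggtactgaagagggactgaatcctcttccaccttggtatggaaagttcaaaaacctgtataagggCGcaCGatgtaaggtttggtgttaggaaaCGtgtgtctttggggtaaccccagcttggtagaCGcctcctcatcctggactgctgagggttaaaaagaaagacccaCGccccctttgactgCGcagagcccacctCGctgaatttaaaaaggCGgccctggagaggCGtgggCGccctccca
The CG dinucleotide, which reads the same on both strands, occurred 25 times in the Col13a1 window and 10 times in that of Col26a1, and at least as many occurred in 9.74% and 35.9% of all 33465 such windows. A window was at hand for 18 of the 27 members, with 0 (Col9a1) to 33 (Col4a1) CG dinucleotides, a median of 12.0 against 5.0 over all windows, and at least 1 in 17 of the 18 against 92.2% of all. These counts describe the reference and were not set against methylation data.

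Col4a1 encodes a main chain of the basement membrane around vessels. It stood at 10.60, 10.55, 10.50, 10.37 and 11.30 at Site #1, at 10.40 to 10.82 (median 10.55) at Site #2 and at 10.44 to 10.90 (median 10.68) at Site #3. Replicate 5 of Site #1 was well above all others, and the site means of 10.67, 10.58 and 10.67 differed by less than the spread between rats (within-site SD 0.23). Of the 4 highest values, 2 were in the libraries high in Col1a1. The 4 libraries high in Col1a1 held 10.69 to 11.30 and the other 13 held 10.37 to 10.82. Since Col1a1 fell into separate sets of libraries, no correlation over all 17 is given for it. Among the 13 libraries without high Col1a1, a narrower range of Col1a1, Col4a1 and Col1a1 had a relation that did not pass (r = 0.31, permutation p = 0.306, and rho = 0.15, permutation p = 0.629), and r was 0.02 without the pair of libraries farthest from the median. No relation between Col4a1 and Flt1, a receptor of the vessel lining, was detected over the 17 libraries (r = 0.08, permutation p = 0.756, adjusted 0.928 over 8 gene pairs, and rho = 0.00, permutation p = 0.996, adjusted 0.996).

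Col11a2 encodes a chain of the fibrous type XI collagen and varied almost as much as Itgb6 (within-site SD 0.29). Its values were 11.50, 11.39, 11.39, 11.36 and 12.20 at Site #1, 11.25 to 11.86 (median 11.51) at Site #2 and 11.42 to 12.19 (median 11.72) at Site #3. The high libraries were Site #1 replicate 5 and Site #3 replicate 6, and the latter was not high in Col1a1. The means of 11.57, 11.55 and 11.75 overlapped, and Site #3 minus Site #2 was 0.20 with a 95% interval from -0.09 to 0.50.

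The other collagens each had a mean below 1 approximate CPM. Col22a1, a collagen of tissue junctions, stood at 3.26, 3.27, 3.28, 3.25 and 3.39 at Site #1, 3.23 to 3.33 (median 3.26) at Site #2 and 3.23 to 3.39 (median 3.28) at Site #3. Replicate 5 of Site #1 was again its highest library there, and 3 of its 4 highest values lay in the libraries high in Col1a1. Col9a1, a cartilage collagen that coats fibrils, had means of 4.09, 4.08 and 4.10. Col17a1, a membrane collagen of epithelial anchoring, had means of 1.89, 1.88 and 1.87. The 7 members below 1 CPM, which include Adam33, Col13a1, Col26a1 and Unc5cl, had within-site SDs of at most 0.17, on values that ran from 0.16 to 5.56.

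The ADAM genes had similar means at the 3 sites. Adam11, a brain member without protease activity, had means of 12.82, 12.74 and 12.83, and its highest library was Site #1 replicate 5 at 13.09. Adam12, an active protease, had means of 6.37, 6.40 and 6.41. Adam33, also an active protease, stood at 1.72 to 1.84 in all libraries, with means of 1.77, 1.74 and 1.74. None of the 3 reached an unadjusted p of 0.05 in any comparison with limma.

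**Figure D4:**
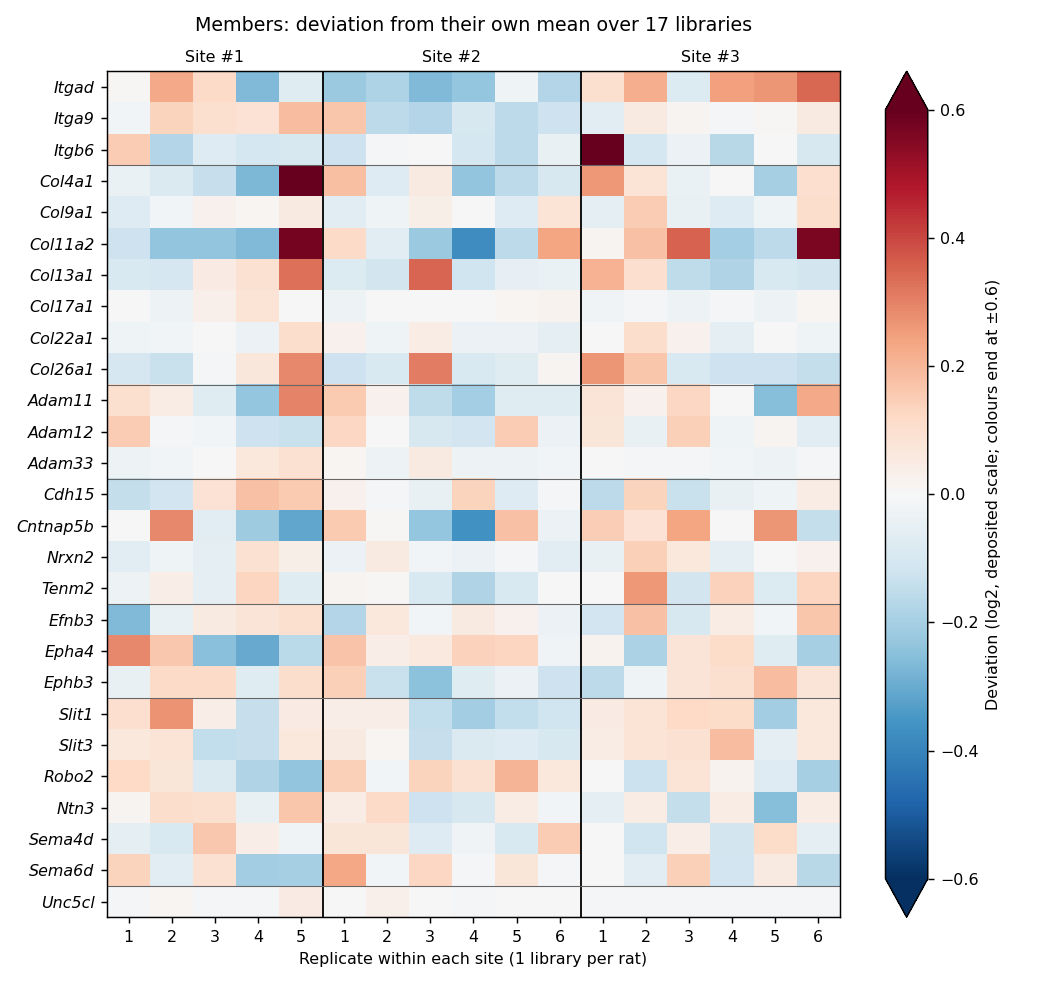
Deviation of each of the 27 members from its own mean over the 17 libraries, in log2 units (colour, ending at ±0.6), with members in rows by family and libraries in columns by site and replicate. Itgb6 in Site #3 replicate 1 and Col4a1 in Site #1 replicate 5 are the darkest cells.

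The adhesion molecules of neurons and muscle differed little. Nrxn2, a presynaptic neurexin, was the steadiest of the 20 members with at least 1 CPM, with a within-site SD of 0.06 and means of 13.27, 13.26 and 13.30. Tenm2, a teneurin that binds latrophilins across the synapse, had means of 12.74, 12.69 and 12.79. For Tenm2 and Adgrl2, which encodes a latrophilin, no relation was detected across the 17 libraries (r = 0.12, permutation p = 0.652, adjusted 0.928, and rho = 0.06, permutation p = 0.824, adjusted 0.981). Cntnap5b, a contactin-associated protein that matches the list by its first letters, had means of 8.37, 8.38 and 8.53 and a within-site SD of 0.20. Cdh15, the cadherin of muscle cells, had means of 7.67, 7.64 and 7.61.

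In the ephrin system, a ligand and a receptor varied in opposite directions on the deposited scale, less clearly after median centring. Efnb3 encodes a membrane-bound ephrin and Epha4 a receptor that takes ephrins of both classes. Efnb3 stood at 12.59, 12.81, 12.91, 12.93 and 12.95 at Site #1, at 12.68 to 12.92 (median 12.86) at Site #2 and at 12.74 to 13.03 (median 12.87) at Site #3. Epha4 stood at 14.55, 14.42, 14.01, 13.96 and 14.10 at Site #1, at 14.24 to 14.43 (median 14.36) at Site #2 and at 14.06 to 14.37 (median 14.23) at Site #3. At Site #1 the library with the lowest Efnb3 had the highest Epha4.

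Over the 17 libraries, Efnb3 and Epha4 had r = -0.72 (permutation p = 0.00116, adjusted 0.00309 over 8 pairs) and rho = -0.70 (permutation p = 0.00298, adjusted 0.0119). With each value taken relative to its site mean, r was -0.75 (permutation p = 0.00204, adjusted 0.00816) and rho -0.75 (permutation p = 0.00389, adjusted 0.0104). Without the pair of libraries farthest from the median of Efnb3, r was -0.58. After median centring of the libraries, r was -0.52 with an adjusted permutation p of 0.0905, so the relation did not hold under that scaling. How often other pairs of genes reach such an r was not tested. For Efnb3 and Ephb3, a receptor of the B class, no relation was detected (r = 0.02, permutation p = 0.928, adjusted 0.928, and rho = -0.05, permutation p = 0.859, adjusted 0.981).

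None of these genes differed between sites past the adjusted threshold. The means were 12.84, 12.84 and 12.88 for Efnb3, 14.21, 14.35 and 14.22 for Epha4 and 9.49, 9.36 and 9.49 for Ephb3. Epha4 was 0.13 lower at Site #3 than at Site #2 with an unadjusted p of 0.046 and an adjusted p of 0.326 in limma. Neurod6, a marker of excitatory neurons, was 0.20 lower in the same comparison (adjusted p = 0.193, limma) and was also highest at Site #1 in replicate 1, at 13.77. The part of neuronal subtypes in the Epha4 values was not tested.

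Slit1 and Slit3 encode secreted ligands that repel axons, and libraries low in one were mostly low in the other. Slit1 stood at 12.79, 12.96, 12.73, 12.55 and 12.74 at Site #1, at 12.48 to 12.73 (median 12.56) at Site #2 and at 12.48 to 12.81 (median 12.76) at Site #3. Slit3 stood at 11.57, 11.59, 11.36, 11.37 and 11.57 at Site #1, at 11.37 to 11.56 (median 11.43) at Site #2 and at 11.45 to 11.69 (median 11.58) at Site #3. Replicate 5 of Site #3 was the lowest of its site in both genes.

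The values of Slit1 fell into a low and a high set of libraries, with an empty stretch of 0.15 between them. The low set held 6 libraries (Site #1 replicate 4, Site #2 replicates 3 to 6 and Site #3 replicate 5), with Slit1 from 12.48 to 12.57 and Slit3 from 11.37 to 11.45. The high set held 11 libraries, with Slit1 from 12.73 to 12.96 and Slit3 from 11.36 to 11.69, and all but Site #1 replicate 3 of these had a Slit3 value above every library of the low set. Each set held libraries of all 3 sites.

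In the test planned over all 17 libraries, Slit1 and Slit3 had r = 0.77 (permutation p = 0.00043, adjusted 0.00309 over 8 pairs). Their rho was 0.81 (permutation p = 0.0002, adjusted 0.0016). With each value taken relative to its site mean, r was 0.81 (permutation p = 0.0001, adjusted 0.0008). These values take in the step between the sets. Within each set, where the range of Slit1 is narrower, the relation was not settled. In the high set r was 0.39 (permutation p = 0.167, adjusted 0.412 over 4 relations), rho was 0.86 (permutation p = 0.00108, adjusted 0.00432), and r was 0.64 without the pair of libraries farthest from the median. In the low set r was -0.57 (exact permutation p = 0.212, adjusted 0.412) and rho -0.77 (exact permutation p = 0.103, adjusted 0.206), and r was 0.13 without the pair of libraries farthest from the median. For Slit1 and Robo2, a receptor of the Slit ligands, no relation was detected in the high set (r = 0.35, permutation p = 0.309, adjusted 0.412, and rho = 0.24, permutation p = 0.485, adjusted 0.646) or in the low set (r = 0.11, exact permutation p = 0.847, adjusted 0.847, and rho = -0.14, exact permutation p = 0.803, adjusted 0.803). For Slit3 and Robo2 over all 17 libraries, r was -0.04 (permutation p = 0.874, adjusted 0.928) and rho -0.06 (permutation p = 0.808, adjusted 0.981).

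**Figure D5:**
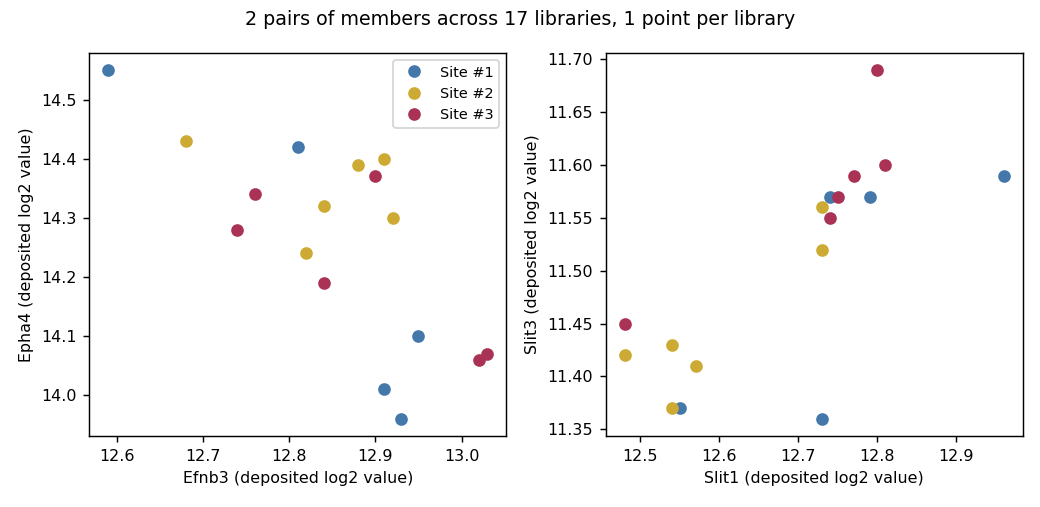
Epha4 against Efnb3 (left) and Slit3 against Slit1 (right), deposited log2 values, 1 point per library and coloured by site, n = 17. The left panel falls (r = -0.72, and -0.52 after median centring). In the right panel 6 libraries with Slit1 of at most 12.57 lie apart from the other 11 and have low Slit3.

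Between Site #2 and Site #3, Robo2 and Slit3 came closest to a call after Itgad. Robo2 stood at 12.62, 12.57, 12.41, 12.32 and 12.26 at Site #1, at 12.48 to 12.70 (median 12.61) at Site #2 and at 12.30 to 12.58 (median 12.46) at Site #3. Its means were 12.44 ± 0.15, 12.60 ± 0.07 and 12.45 ± 0.10. Site #2 was the highest, by 0.16 over Site #1 (adjusted p = 0.698, limma) and by 0.15 over Site #3 (adjusted p = 0.168, limma). Slit3 had means of 11.49 ± 0.12, 11.45 ± 0.07 and 11.57 ± 0.08 and was 0.12 higher at Site #3 than at Site #2 (95% interval 0.03 to 0.21, adjusted p = 0.187, limma). The contrast of Site #3 with the other sites gave 0.10 for Slit3 (adjusted p = 0.34, limma). Slit1, with means of 12.76, 12.60 and 12.73, was 0.16 lower at Site #2 than at Site #1 (adjusted p = 0.733, limma).

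Ntn3, a netrin, stood at 7.65, 7.74, 7.73, 7.59 and 7.80 at Site #1, at 7.51 to 7.75 (median 7.65) at Site #2 and at 7.38 to 7.68 (median 7.63) at Site #3. Its means of 7.70, 7.63 and 7.58 gave Site #3 a value 0.12 below Site #1, which did not pass (adjusted p = 0.685, limma). Sema4d, a membrane semaphorin that binds plexin-B1, had means of 11.69, 11.70 and 11.66. Sema6d, another membrane semaphorin, had means of 11.97, 12.08 and 11.99. Unc5cl, which is named after the netrin receptor Unc5c but is not one, stood at 0.16, 0.18, 0.16, 0.16 and 0.22 at Site #1, at 0.16 to 0.20 (median 0.17) at Site #2 and at 0.16 in all Site #3 libraries. Its difference of -0.01 between Site #2 and Site #3 had an unadjusted limma p of 0.0191 on values this low and did not pass (adjusted p = 0.223).

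Partner genes were checked in fixed lists, which cover a part of these pathways. The adhesion partner Esam is also an endothelial marker here, and the matrix partner Fmod a fibroblast marker, so these counts share genes. Of 53 tested partners in 3 lists (18 adhesion genes, 12 guidance genes and 23 matrix genes), 0 passed with limma and Benjamini-Hochberg adjustment (0.0%, 0.101%, 1.05% and 0.768% of all genes did so in Site #1 vs Site #2, Site #1 vs Site #3, Site #2 vs Site #3 and the Site #3 contrast). At an unadjusted p under 0.05 there were 12 between Site #2 and Site #3 (22.6%, against 14.8% of all genes), 6 between Site #1 and Site #2 (11.3%, against 6.74%), 3 between Site #1 and Site #3 (5.66%, against 8.17%) and 5 in the Site #3 contrast (9.43%, against 12.0%). Between Site #2 and Site #3, 39 partners were higher and 14 lower, with a median of 0.05 against 0.00 over all genes. Median centring, after which 6405 of all 22664 tested genes were higher, changed this to 32 and 21, and quantile normalization to 40 and 13. In the reported fit, matrix partners had 18 higher and 5 lower, adhesion partners 13 higher and 5 lower, and guidance partners 8 higher and 4 lower. After median centring these counts were 14 and 9, 11 and 7, and 7 and 5. Without the 4 libraries high in Col1a1 they were 15 and 8, 11 and 7, and 10 and 2.

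The largest partner difference between Site #2 and Site #3 was that of Frem3, a matrix protein related to FRAS1, which was named after its value was seen. Its values were 9.28, 9.42, 8.88, 8.54 and 8.97 at Site #1, 8.70 to 9.90 (median 9.13) at Site #2 and 8.15 to 8.95 (median 8.40) at Site #3. Site #3 was 0.73 lower than Site #2, against the direction of most partners, with overlapping ranges (95% interval -1.19 to -0.28, adjusted p = 0.115, limma). The partner nearest to a call between Site #2 and Site #3 was Tnxb, a large matrix glycoprotein of the tenascin family. Its values were 9.76, 9.43, 9.42, 9.34 and 10.21 at Site #1, 9.21 to 9.82 (median 9.53) at Site #2 and 9.81 to 10.20 (median 10.07) at Site #3. Site #3 was 0.47 higher than Site #2 (95% interval 0.24 to 0.69, adjusted p = 0.0537, limma), and the ranges overlapped slightly. Tnxb passed under some other settings, such as median centring (0.44, adjusted p = 0.0244, limma). Celsr1, a large cadherin of planar cell polarity, had the smallest p against Site #1 and in the Site #3 contrast, where it was 0.25 and 0.24 higher (adjusted p = 0.131 and 0.0709, limma). Its values at Site #1 were 8.85, 8.88, 8.93, 8.97 and 8.81, and it ran from 8.63 to 9.06 (median 9.00) at Site #2 and from 8.97 to 9.27 (median 9.14) at Site #3. Between Site #1 and Site #2 the smallest p was that of Sdk1, a synaptic adhesion gene of the sidekick family, with means of 8.05 and 7.87 (adjusted p = 0.66, limma).

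Markers of vessel lining, astrocytes, connective tissue and choroid plexus mostly had higher means at Site #3 than at Site #2, and 0 of them passed the adjusted threshold in limma. In this comparison 14.8% of all tested genes had an unadjusted p under 0.05, and the median difference over all genes was 0.00. All 4 endothelial markers were higher, with a median of 0.16 and each at an unadjusted p under 0.05. Their summed level was 79.1 to 93.5 approximate CPM at Site #2, 92.5 to 106 at Site #1 and 93.9 to 100 at Site #3. The 4 astrocyte markers were higher as well (3 of 4 after median centring or quantile normalization), with a median of 0.09 and 2 at an unadjusted p under 0.05. The 4 fibroblast markers were higher with a median of 0.36 (0.33 after median centring) and 0 at an unadjusted p under 0.05, and the 3 choroid plexus markers were higher with a median of 0.54 (0.52 after median centring) and 1 at an unadjusted p under 0.05. Without Site #3 replicate 1 the fibroblast markers were 3 higher and 1 lower with a median of 0.25, and the choroid plexus markers had a median of 0.20. Without the 4 libraries high in Col1a1 these medians were 0.22 and 0.20. The summed level of the fibroblast markers was 25.4 to 88.1 approximate CPM at Site #1, 22.4 to 68.4 at Site #2 and 25.4 to 87.8 at Site #3, and that of the choroid plexus markers 74.9 to 95.1, 73.3 to 87.6 and 72.8 to 224. No marker of these lists was at 0. With the mean of Col1a1, Col6a3 and Adamts2 as a covariate, 0, 0, 1 and 0 members passed in the comparisons, ordered as for the partners. At an unadjusted limma p under 0.05 there were 4, 4, 7 and 6 members, against 4, 0, 5 and 2 without it. The corresponding counts of all 22664 tested genes were 1603, 2139, 3255 and 2933, against 1527, 1851, 3352 and 2724. No covariate was fitted for the other markers of this paragraph. The part of these cells in the small differences of the members was not tested.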

How the data were processed

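The authors cleaned reads with Trimmomatic, used HISAT2 to map them to rn6 and assigned them to genes with featureCounts. The submitters' processing notes name hg19 as well as rn6. The deposited values are log2 expression values, 1 per Ensembl gene and library, normalized between libraries by the authors in a step and with a transform not given in the sources used here. The labels give a TruSeq mRNA kit, and the paper's methods a NEBNext kit and, in 1 sentence, microglia preparations. The labels call the tissue hippocampal, and neuronal markers were present in all 17 libraries.

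The depth of each library and its counting error are unknown from these values, which hold no read counts, and the number of rats sets the precision. Of 32494 genes, 9830 at exactly 0 in all libraries were left out. Pairs of sites were fitted singly, and the Site #3 contrast with all 17 libraries, by limma 3.58.1 (R 4.3.3, mean-variance trend, two-sided, Benjamini-Hochberg adjustment, threshold 0.05), which was tested on simulated data. Gene pairs were tested with 100000 permutations (two-sided), within sites for site-centred values. Slit1 and Col1a1 fell into separate sets of libraries, so their pairs were also tested within sets split at the widest gap (exactly for 6 libraries). This split was made after seeing the data. Python 3.11.15 was used for tables and figures.

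The members and lists were chosen with earlier results of these data known. Every member is named with its site means. Values in every library are given for called members, the 3 with the smallest p in each comparison, the 3 with the largest within-site SD and those with an outlying library, and for Efnb3 and Epha4, which were added after their relation was seen. Partners are named when called or smallest in p, besides Frem3, named after its value was seen. Replicate numbers recur at each site but belong to different rats, and same-numbered libraries did not deviate together, so no pairing was used. Sequences are from RefSeq (GRCr8), matched by symbol for 18 of 27 members. Adam11, Adam33, Col22a1, Efnb3, Epha4, Itgad, Nrxn2, Sema4d and Slit1 had no entry. The DNA methylation libraries were not used here.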

Additional observations from a re-analysis of the deposited data

Results flagged for a closer look

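In 8 of 81 groups of libraries (27 members at 3 sites), 1 library was separated from the rest of its site by more than Dixon's 95% limit, and chance alone flags about 1 in 20 such groups. Replicate 5 of Site #1 was the high library for Col4a1 (11.30, the others 10.37 to 10.60), Col11a2 (12.20, the others 11.36 to 11.50) and Col22a1 (3.39, the others 3.25 to 3.28). Replicate 3 of Site #2 was the high library for Col13a1 (5.56, the others 5.09 to 5.17) and Col26a1 (5.18, the others 4.75 to 4.89). Both of these libraries are among the 4 with high Col1a1. Itgb6 was high in Site #3 replicate 1 (6.98, the others 5.68 to 5.85). This library also had high F5 and Aqp1, whereas Car12 did not set it apart. Itga9 was high in Site #2 replicate 1 (7.06, the others 6.72 to 6.80). Slit1 was low in Site #3 replicate 5 (12.48, the others 12.74 to 12.81). The causes of these values were not tested.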

How the results depend on the processing

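The count of members called between Site #2 and Site #3 was 1 (Itgad) in the reported fit and under 9 of 12 other settings, with adjusted p from 0.0132 to 0.0478. It was 0 without a filter on genes at 0 (adjusted p = 0.0536), 0 with the microglial marker covariate (0.146) and 0 without the 4 libraries high in Col1a1 (0.181), and the last 2 settings were chosen after seeing the data. Leaving out 1 library gave 0 to 1 members, with adjusted p from 0.00794 to 0.0636. In the Site #3 contrast, leaving out 1 library gave 0 to 1 members, the 1 being Itgad without Site #3 replicate 3 (0.33, adjusted p = 0.0367). The relation of Efnb3 and Epha4 fell to r = -0.52 under median centring (adjusted permutation p = 0.0905) and stayed between -0.76 and -0.63 with 1 library left out. The count of called partners, 0 in the reported fits, was 1 (Tnxb) between Site #2 and Site #3 with the 1 CPM filter (adjusted p = 0.0255), median centring (0.0244), array weights (0.041) and the replicate block (0.0249). In the Site #3 contrast it was 1 with the 1 CPM filter (Celsr1, 0.0499), array weights (Tnxb, 0.0305) and the microglial marker covariate (Tnxb, 0.0409). Leaving out 1 library gave 0 to 1 called partners in both, the 1 being Tnxb without Site #2 replicate 1 (0.0395) or without Site #1 replicate 5 (0.0189). The causes were not tested. Without a filter, the 9830 genes at 0 enter the fit as well as the adjustment.

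With the replicate number as a block, Itgad had an adjusted p of 0.0478 between Site #2 and Site #3 and the member count stayed at 1, while the calls among all genes fell from 239 to 43. Same-numbered libraries are different rats and had mean correlations of -0.005, -0.166 and 0.028. Over the other settings, calls among all genes for Site #2 vs Site #3 ran from 29 (4 libraries left out) to 482 (at least 1 CPM), and from 81 (without Site #3 replicate 6) to 333 (without Site #2 replicate 1) with 1 library left out. For Site #1 vs Site #3 they were 23, with 0 to 36 under other settings and 9 to 30 with 1 library left out, and for the Site #3 contrast 174, with 50 to 339 and 78 to 224. No other count of called members changed. Of the 27 members, 15, 14, 7 and 8 had a difference of the opposite sign under at least 1 other setting in Site #1 vs Site #2, Site #1 vs Site #3, Site #2 vs Site #3 and the Site #3 contrast, all with differences of at most 0.19 in the reported fits. The differences of the 3 members with the smallest p in each comparison, and those of Itgad, kept their sign under the settings run. All limma p values in this section are Benjamini-Hochberg adjusted.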
